A study of Mus musculus with 2 samples.

Results

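Among γδ T cells sorted from mouse lung, 199 cells carried transcripts of the Vγ4 receptor chain together with transcripts of the IL-17-producing type, and these cells (members) are described here. The members came from the library of WT cells lacking the Vγ1 chain, and were chosen by their own transcripts. A member had at least 1 unique molecular identifier (UMI, 1 counted transcript) of Tcrg-V4, none of Tcrg-V6 or Tcrg-V1, and a UMI in at least 3 of 8 rule genes: Tmem176a, Tmem176b, Cxcr6, Il18r1, Aqp3, Ccr6, Icos and Serpinb1a. They were 199 of 424 Tcrg-V4 cells (46.9%, exact Clopper-Pearson 95% interval 42.1 to 51.8) and 7.94% of the 2505 WT cells that passed the cell filter, in a series of 9139 such cells. The other 225 Tcrg-V4 cells, with fewer than 3 rule genes, served as the comparison within the same receptor. A further comparison used 588 Tcrg-V6 cells of the same library chosen by the same 8 genes. Since measured transcripts chose the members, differences from the other Tcrg-V4 cells are given as a description.

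The WT library was made from lungs of uninfected C57BL/6NCrl mice aged 5 to 7 weeks. The second library of the study held Vγ1 cells from lungs of mice of the strain labelled B6.Cg-Tcrgtm1lku(B6.Vg4-/-Vg6-/-), which lack the Vγ4 and Vγ6 chains (KO), of the same age and also uninfected. There was 1 library per group, and how many mice were behind each is not given in the sources used here. No test across samples was therefore possible, no p-value is given, and the intervals below cover counting error only.

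γδ T cells recognise targets through a receptor of 1 γ and 1 δ chain, each built from a variable segment joined to a constant part. Cells committed to IL-17 before leaving the thymus use mostly the Vγ4 or Vγ6 chain, settle in barrier tissues and respond to IL-23 and IL-1 without a need for a new receptor signal. Vγ4 cells also include a separate branch that makes interferon-γ, so the chain alone does not give the type. IL-17A and IL-17F, which signal through a shared receptor on epithelial cells and fibroblasts, are encoded by neighbouring genes.

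The variable segments are shown because the members were defined by reads on them. Tcrg-V4 lies at chr13:19184974-19185506 on the plus strand of GRCm38, and Tcrg-V6 at chr13:19190356-19190929 on the plus strand. The annotation lists both as TCR variable genes. The last 300 coding bases of each segment, read from the GENCODE transcripts of that build, cover chr13:19185207-19185506 and chr13:19190630-19190929. Capitals mark the longest run that both share.
Tcrg-V4: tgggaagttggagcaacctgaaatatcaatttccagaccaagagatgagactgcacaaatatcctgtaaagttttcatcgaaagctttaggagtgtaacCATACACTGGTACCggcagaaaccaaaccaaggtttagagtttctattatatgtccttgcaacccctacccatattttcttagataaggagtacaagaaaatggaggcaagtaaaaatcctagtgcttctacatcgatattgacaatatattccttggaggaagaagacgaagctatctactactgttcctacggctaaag
Tcrg-V6: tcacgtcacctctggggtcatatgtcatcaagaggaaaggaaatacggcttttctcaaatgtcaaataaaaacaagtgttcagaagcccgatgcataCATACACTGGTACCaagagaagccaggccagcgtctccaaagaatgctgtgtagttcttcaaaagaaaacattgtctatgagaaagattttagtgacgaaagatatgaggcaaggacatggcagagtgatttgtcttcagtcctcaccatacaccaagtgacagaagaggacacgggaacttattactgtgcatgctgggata
The 2 stretches were 55.8% identical in a global alignment and shared no run longer than 14 bases. Tcrg-V1, the chain removed by the sort, was 69.9% identical to Tcrg-V4 over its own last 300 bases, with a longest shared run of 13 bases.

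The receptor calls rested on few reads. Of the 199 members, 151 had 1 Tcrg-V4 UMI, 32 had 2, 13 had 3 and 3 had 4. A Tcrg-V4 UMI was also present in 71 of 754 cells with a Tcrg-V6 UMI (9.42%) and in 46 of 196 cells with a Tcrg-V1 UMI (23.5%), and such cells were kept out of every group. It was present in 10 of all 74 cells with at least 3 myeloid or at least 3 B cell markers (13.5%), of which 28 had a CD3 chain or Trdc UMI. Among the 46 such cells with no CD3 chain or Trdc UMI, which should lack γδ receptors, 1 had a Tcrg-V4 UMI (2.17%, exact interval 0.0550 to 11.5, median depth 2903 UMIs), against 21.4% of all kept cells at 3288 UMIs. Members had a median of 3357 UMIs and 1520 genes per cell, other Tcrg-V4 cells 3553 and 1594, and Tcrg-V6 cells 3710 and 1653. By median, members were thus not the deeper cells, but a smaller share of them was shallow. Below 2000 UMIs lay 6 of the 199 members, 20 of the 225 other Tcrg-V4 cells and 25 of the 588 Tcrg-V6 cells. Of 23 barcodes present in both libraries, 2 belonged to members.

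The proposed markers of these cells were counted as a description. They were proposed with earlier results of these data known, so the counts are no independent check of the label. Il17f, Trdv5 and 5830411N06Rik, none of which the rule used, had UMIs in 59, 102 and 164 of the 199 members. Il17f and Trdv5 had UMIs in 10 and 64 of the 225 other Tcrg-V4 cells. CD3 chain or Trdc transcripts were found in 98.5% of members. The 10 myeloid markers summed to 27.5 CPM (UMIs of a gene per 1e6 UMIs summed over the group) in members, and 6 of the 10 were at 0, among them Csf1r and the C1q genes. In the other Tcrg-V4 cells the same list summed to 815 CPM, with Lyz2 at 487 CPM and 3 genes at 0. The 7 B cell markers summed to 82.6 CPM in members and 160 CPM in the other Tcrg-V4 cells. Values without the 2 members and 7 comparison cells that carried at least 3 markers of either list are given where they moved a ratio by over 1.5-fold.

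Genes outside the rule were followed by the number of rule genes. Tcrg-V4 cells with 0 to 8 rule genes numbered 93, 83, 49, 49, 54, 47, 33, 11 and 5 in that order. Just outside the limit, cells with 2 rule genes had 57.5 CPM of Il17a, 78.4 of Il17f and 261 of 5830411N06Rik. Just inside it, cells with 3 rule genes had 384, 209 and 758 CPM. Among members with 3, 4, 5 and 6 to 8 rule genes, Il17a ranged from 297 to 405 CPM, Il17f from 143 to 267 CPM and 5830411N06Rik from 699 to 874 CPM. The lowest and highest Il17f values, at 4 and at 6 to 8 rule genes, had intervals of 93.5 to 210 and 200 to 348 CPM, which overlap. Cells with 0 rule genes had no Il17a or Il17f UMI among 93 cells, which allows up to 3 UMIs of either. Ccl5, a chemokine of cytotoxic cells, went the other way, from 2735 CPM at 2 rule genes to 1043 at 3, 143 at 4, 6.25 at 5 and 440 at 6 to 8. The Ccl5 left among members lay in few cells, described further on.

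**Figure D1:**
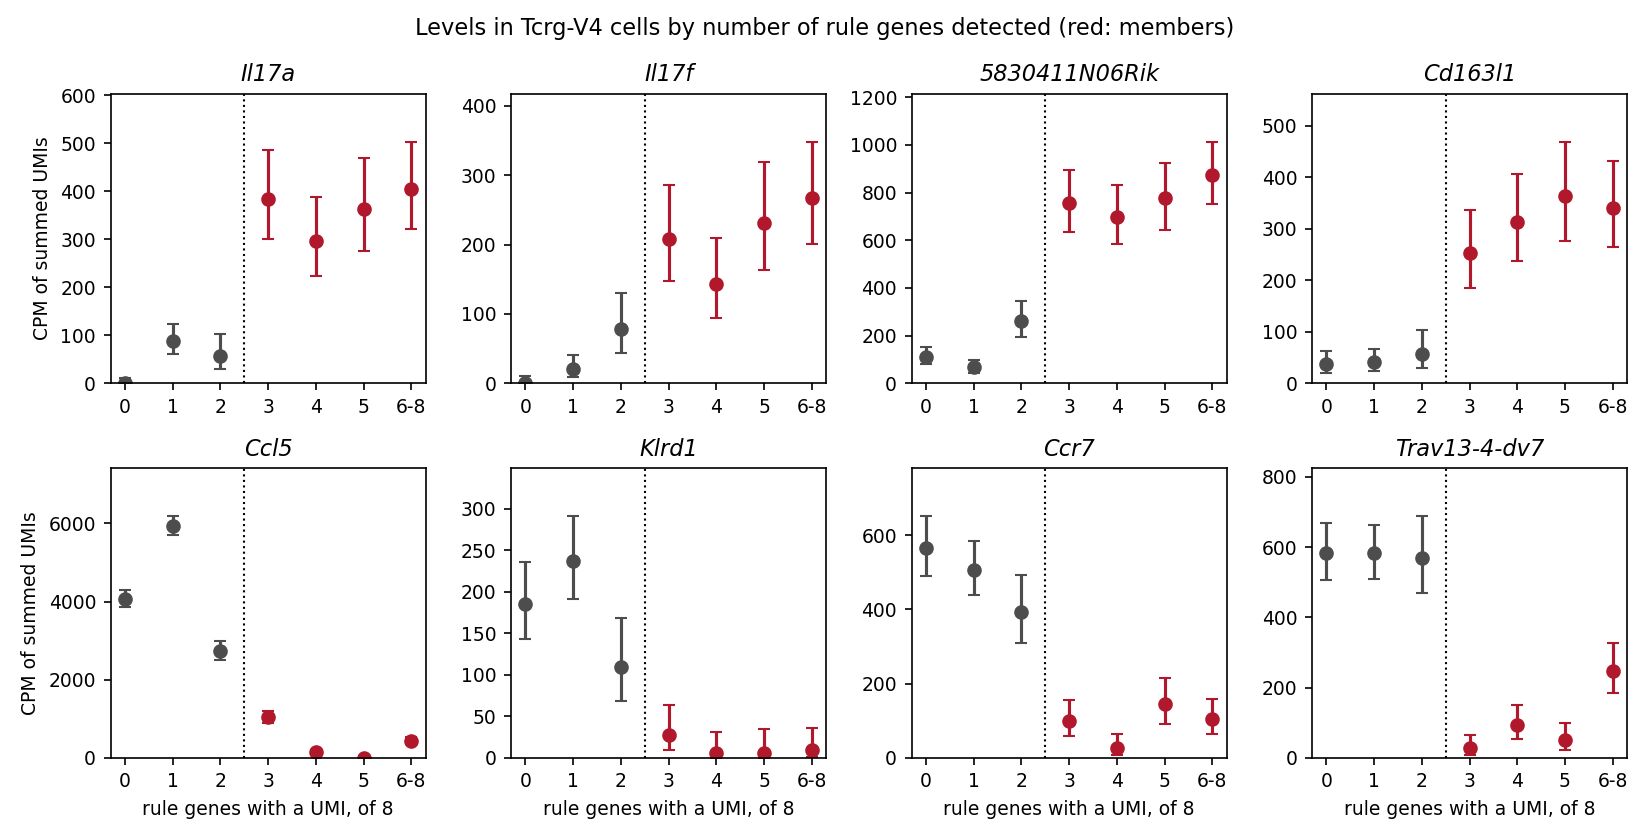
CPM of summed UMIs (vertical axes, each from 0) in Tcrg-V4 cells grouped by how many of the 8 rule genes had a UMI (horizontal axes), for 8 genes the rule did not use. Points are group values with exact Poisson 95% intervals, grey for comparison cells and red for members. Il17a, Il17f, 5830411N06Rik and Cd163l1 are higher to the right of the dotted limit, from 3 rule genes on, and Ccl5, Klrd1, Ccr7 and Trav13-4-dv7 are lower there.

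IL-17 cytokine transcripts, which the rule did not use, were higher in members than in the other Tcrg-V4 cells. Il17a reached 264 UMIs in members (364 CPM) and 45 in the other Tcrg-V4 cells (48.3 CPM), a log2 ratio of 2.91 (95% interval 2.45 to 3.40). Il17f reached 155 UMIs (213 CPM) and 23 UMIs (24.7 CPM), a log2 ratio of 3.11 (2.47 to 3.81). Both genes lie on chromosome 1 of GRCm38, Il17a at 20730905-20734496 on the plus strand and Il17f at 20777146-20790617 on the minus strand. Per cell the transcripts were uneven: the lowest and median member had 0 Il17a UMIs and the highest 26, and for Il17f the values were 0, 0 and 14. At this depth 96 of the 199 members had a UMI of Il17a or Il17f. A UMI of Il17a was found in 62 members (31.2%) and in 10 of the comparison cells (4.44%). After each cell was thinned to 2000 UMIs the shares were 25.4% of 193 members and 3.90% of 205 comparison cells, and no UMI was left in the 63 myeloid or B marker cells so thinned, which allows up to 4.76%. When the rule itself was applied to thinned cells, Il17a was 0.78 higher on the log2 scale rather than 2.91, and Il17f 1.39 higher.

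Against the Tcrg-V6 cells of IL-17 type the members had more Il17f, and the order for Il17a depended on how the cells were chosen. Il17a stood at 364 CPM in members and 362 CPM in Tcrg-V6 cells, a log2 ratio of 0.00 (-0.20 to 0.21). With 2 rule genes needed the Il17a ratio was -0.33 (-0.53 to -0.14), with 2 Tcrg-V4 UMIs needed 0.45 (0.14 to 0.76), and with the rule applied to thinned cells -0.62 (-0.94 to -0.31). Il17f stood at 213 and 29.1 CPM, a log2 ratio of 2.88 (2.46 to 3.31). Without cells with a Y-linked UMI the Il17f ratio was 1.52 (0.93 to 2.11), the lowest of the alternatives run. Of all Il17a and Il17f UMIs, Il17f made up 37.0% in members (155 of 419, exact interval 32.4 to 41.8), 33.8% in the other Tcrg-V4 cells (23 of 68) and 7.42% in Tcrg-V6 cells (68 of 916, 5.81 to 9.32). Leaving out the 3 cells with most UMIs in each group gave 41.8% for members, 54.8% for the other Tcrg-V4 cells and 8.0% for Tcrg-V6 cells. Those 3 cells held 37 of the 68 UMIs of the other Tcrg-V4 cells, so the value there rested on them. Both genes were read in the same cells, and the part of depth in these shares was not tested.

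The cytokines were also counted cell by cell. Of 199 members, 62 had Il17a, 59 had Il17f, 25 had both and 96 had either. Of members with Il17a, 40.3% also had Il17f. Among Tcrg-V6 cells 222 had Il17a and 12.6% of these also had Il17f. Of members with Il17f, 42.4% also had Il17a, against 62.2% of the 45 Tcrg-V6 cells with Il17f. Thinned to 2000 UMIs, Il17f was found in 22.8% of members, 3.41% of the other Tcrg-V4 cells and 4.62% of Tcrg-V6 cells.

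**Figure D2:**
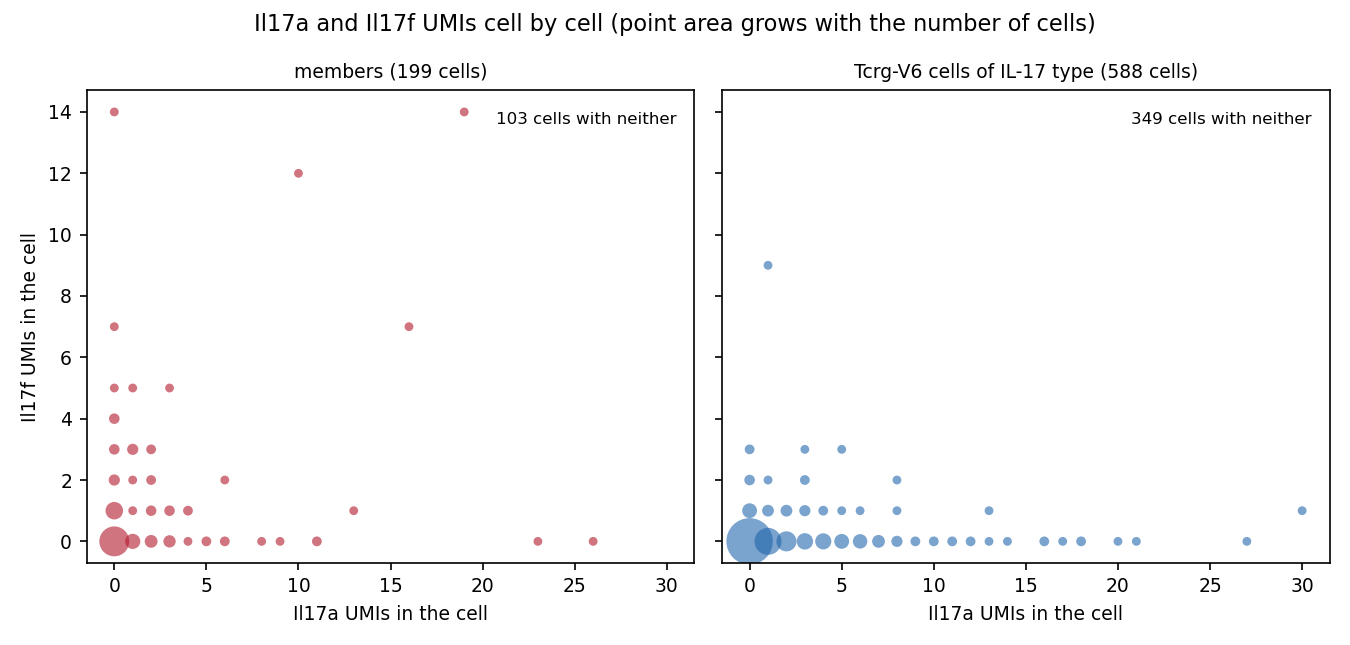
UMIs of Il17a (horizontal axis) and Il17f (vertical axis) in each cell, for the 199 members (left) and the 588 Tcrg-V6 cells of IL-17 type (right), with point area growing with the number of cells at the same values. Members spread along both axes up to 26 Il17a and 14 Il17f UMIs, whereas Tcrg-V6 cells lie mostly along the Il17a axis.

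The upstream sequences of both genes are shown because Il17f and Il17a differed in their ratio between the groups. They hold the 250 bases before the RefSeq start on GRCm38.p6, Il17a at chr1:20730655-20730904 on the plus strand and Il17f at chr1:20784271-20784520 on the minus strand, both written 5′ to 3′. Capitals mark AGGTCA, core letters bound by many nuclear receptors, read on either strand.
Il17a: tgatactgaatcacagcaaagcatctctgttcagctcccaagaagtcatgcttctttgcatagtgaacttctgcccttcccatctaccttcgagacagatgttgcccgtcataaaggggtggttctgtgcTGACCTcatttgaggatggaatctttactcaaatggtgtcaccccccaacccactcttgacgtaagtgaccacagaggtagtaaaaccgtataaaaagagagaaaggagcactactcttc
Il17f: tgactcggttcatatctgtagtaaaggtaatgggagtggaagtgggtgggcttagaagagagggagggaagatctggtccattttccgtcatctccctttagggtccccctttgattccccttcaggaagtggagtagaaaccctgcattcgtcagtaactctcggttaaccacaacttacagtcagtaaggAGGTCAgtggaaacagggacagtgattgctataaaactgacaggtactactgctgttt
Each window held the motif once. In Il17a it lay on the reverse strand, as TGACCT, 114 bases before the start, and in Il17f on the forward strand, 52 bases before it. The motif was in 14.0% of the 32851 promoter windows of that length, and a match of these letters is a description of the sequence, not of binding.

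Most other cytokines were sparse, but Ltb and Tgfb1 were not. Ltb was at 656 CPM in the 77 members with Trdv5 as their only δ gene and 445 CPM in the 42 with Trdv2-2. Tgfb1 was at 139 and 217 CPM in the same subsets, and at 0.04 over the other Tcrg-V4 cells on the log2 scale. Tnf was at 59.2 CPM in members and 14.0 CPM in the other Tcrg-V4 cells, a log2 ratio of 2.08 (1.16 to 3.10). Areg, an epidermal growth factor family ligand tied to tissue repair, was at 44.1 CPM in members and 213 CPM in Tcrg-V6 cells, a log2 ratio of -2.27 (-2.84 to -1.76). Il22 had 20 UMIs in members, but 16 of them were in 1 cell and 4 in another. Ifng had 2 UMIs in members and 27 in the other Tcrg-V4 cells. Il21, Il4, Il5, Il13 and Il10 had no UMI in members, which allows up to 3 UMIs of each. Of the 17 listed cytokines, 6 had enough UMIs (at least 30 over both groups) to be compared with the other Tcrg-V4 cells, and 4 of these were at least 2-fold higher. Over all 6249 genes so compared, 5.54% were at least 2-fold higher and 7.09% at least 2-fold lower, with a median log2 ratio of -0.07.

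The scavenger receptor pair of γδ T cells marked the members and set them apart from Tcrg-V6 cells in opposite directions. 5830411N06Rik (Scart2) and Cd163l1 (Scart1) encode related surface proteins of IL-17-type γδ cells and neighbour each other on chromosome 7, at 140247284-140300736 and 140218267-140231145, both on the plus strand. Their longest coding transcripts, of 3342 and 3454 bases, were 64.3% identical and shared no run longer than 23 bases. 5830411N06Rik was at 779 CPM in members, 124 CPM in the other Tcrg-V4 cells and 19.2 CPM in Tcrg-V6 cells. Cd163l1 was at 317, 43.0 and 1407 CPM in the same order. The log2 ratios over Tcrg-V6 cells were 5.34 (4.90 to 5.81) for 5830411N06Rik and -2.15 (-2.35 to -1.96) for Cd163l1.

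Within the members the pair was often found in different cells. 5830411N06Rik was carried by 164 members, with a median of 3 UMIs among carriers and a highest of 16. Cd163l1 was carried by 59 members, with a median of 3 and a highest of 10. Both were found in 38 cells, 5830411N06Rik alone in 126, Cd163l1 alone in 21 and neither in 14. Cd163l1 was thus found in 23.2% of members with 5830411N06Rik and in 60.0% of members without it. Median depths of the 2 sets were 3386 and 2966 UMIs, so the second set was the shallower. 5830411N06Rik was found in 82.3% of members with Il17a and 82.5% of those without. Thinned to 2000 UMIs, 5830411N06Rik was found in 69.9% of members, 17.6% of the other Tcrg-V4 cells and 1.95% of Tcrg-V6 cells. It was found in 0 of 36 thinned myeloid or B marker cells without a CD3 chain or Trdc UMI, which allows up to 8.33%, so the low share in Tcrg-V6 cells could not be told from background at this depth.

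Receptors for cytokines that drive IL-17, Il23r and Il1r1 among them, were higher in members than in the other Tcrg-V4 cells. Il23r was at 270 CPM in members and 45.1 CPM in the other Tcrg-V4 cells, a log2 ratio of 2.58 (2.09 to 3.10). Il1r1 gave 3.28 (2.27 to 4.46), Il17re, a subunit of the IL-17C receptor, 3.75 (2.55 to 5.25), and Il2ra 2.78 (2.08 to 3.55). Tnfrsf25, the receptor of TL1A, gave 3.86 (2.88 to 5.03), the highest of the list. The list was mixed all the same: of 15 receptors compared, 6 were at least 2-fold higher, 2 at least 2-fold lower (Il18rap at -1.59 and Il6st at -1.64) and 7 in between, with a median of 0.36. Against Tcrg-V6 cells, 0 of 15 were at least 2-fold higher and 3 at least 2-fold lower, with Il1r1 at -1.43 (-1.82 to -1.07) and Il23r at -0.71 (-0.94 to -0.49). The background there was 2.37% higher and 5.83% lower over 7627 genes.

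Surface and channel genes of the IL-17 type were mostly higher in members than in the other Tcrg-V4 cells. Of 20 compared, 14 were at least 2-fold higher in members than in the other Tcrg-V4 cells and 0 lower, with a median of 2.37. The highest was Ltb4r1, the leukotriene B4 receptor, with 30 UMIs against 1, a log2 ratio of 5.27 (2.68 to 10.62). Kcnk1, a potassium channel, gave 3.88 (2.69 to 5.38), Ccr2, a chemokine receptor of inflamed tissue, 3.44 (2.66 to 4.32), and Ramp1, part of the receptor for the neuropeptide CGRP, 2.53 (2.03 to 3.07). The members were chosen by other genes of the same cell type, so this direction is no independent result. Against Tcrg-V6 cells, chosen alike, 2 of the 20 were at least 2-fold higher and 8 lower, with a median of -0.83. Ltb4r1 was at 41.3 CPM in members and 165 CPM in Tcrg-V6 cells, and Capg, an actin-capping protein, at 165 and 501 CPM.

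Among regulators of the lineage, members had more Blk, Maf and Zbtb16 than the other Tcrg-V4 cells. Blk, a Src-family kinase needed for IL-17-type γδ cells, was at 189 and 18.3 CPM, a log2 ratio of 3.37 (2.64 to 4.19). Maf, a transcription factor of the lineage, was at 224 and 43.0 CPM, a ratio of 2.39 (1.88 to 2.92), and its level in Tcrg-V6 cells was 219 CPM. Zbtb16 (PLZF), which gives innate-like T cells their fast response, gave 2.37 (1.73 to 3.07) over the other Tcrg-V4 cells and -1.15 (-1.46 to -0.85) over Tcrg-V6 cells, at 139, 26.9 and 308 CPM. Sox13 had 17 UMIs in members and 3 in the other Tcrg-V4 cells, a ratio of 2.86 (1.07 to 5.27), below the 30 UMIs needed to enter the counts of genes. Ahr and Sox4 were lower, at -2.36 (-3.75 to -1.20) and -2.23 (-3.30 to -1.29). Of 14 regulators compared, 4 were at least 2-fold higher, 2 lower and 8 in between.

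**Figure D3:**
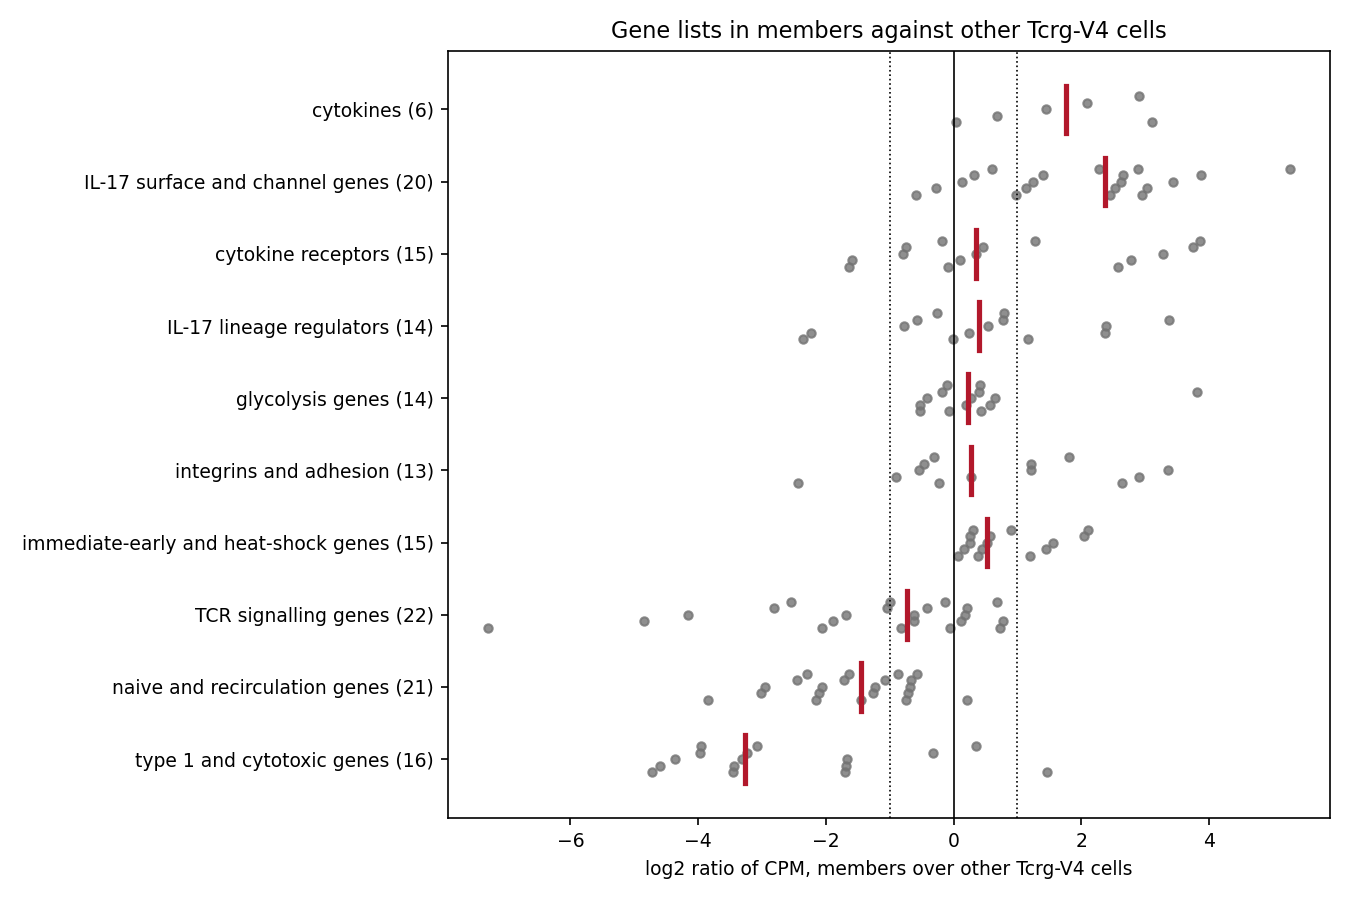
Log2 ratio of CPM, members over other Tcrg-V4 cells (horizontal axis), for each gene with at least 30 UMIs in the 2 groups (grey points), by gene list (rows, number of genes in brackets). Red bars are list medians and dotted lines mark 2-fold. Of the 10 lists drawn, IL-17 surface and channel genes have the highest median (2.37) and type 1 and cytotoxic genes the lowest (-3.27), while glycolysis genes lie near 0 apart from Hk2 at 3.82.

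Type 1 and cytotoxic genes, which belong to the interferon-γ branch, were scarce in the members. Of 16 compared with the other Tcrg-V4 cells, 13 were at least 2-fold lower and 1 higher, with a median of -3.27, or -3.91 without the marker-bearing cells. Ccl5 was at 421 CPM in members and 4574 CPM in the other Tcrg-V4 cells, Nkg7, a granule protein, at 49.6 and 494 CPM, and Klrd1, a chain of the NK receptor CD94, at 12.4 and 191 CPM. Without the marker-bearing cells the Nkg7 ratio was -3.93 (-4.58 to -3.33) rather than -3.32. Tbx21 (T-bet), the regulator of that branch, had 1 UMI in members and 34 in the comparison cells, a ratio of -4.73 (-10.07 to -2.15). Klrk1 (NKG2D), an activating receptor, was the exception, at 241 and 87.0 CPM, a ratio of 1.47 (1.08 to 1.87), and was found in 93 members. Against Tcrg-V6 cells the difference was smaller. There 5 of 12 genes were at least 2-fold lower and 1, Gzma, higher, with a median of -0.28.

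A few cells held most of what remained of this program in members. Ccl5 was found in 13 members, and Gzma in 4. Of 205 Gzma UMIs, 197 came from 1 cell, which had 12617 UMIs, the most of any member, 85 Ccl5 UMIs, 3 rule genes and no UMI of Il17a, Il17f or 5830411N06Rik. That cell also carried 4 H2-Aa, 3 H2-Ab1, 1 Cd68, 2 Cd79b and 3 Ighm UMIs. With 3 myeloid markers it was 1 of the 2 marker-bearing members. With it Gzma was at 282 CPM in members and 351 CPM in the other Tcrg-V4 cells, and without it at 11.2 CPM, a log2 ratio of -4.97 (-6.19 to -3.97). Without it the median of the list was -3.85. Scrublet, a caller of droplets that hold more than 1 cell, did not mark it.

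Genes of resting and recirculating T cells were also lower in members than in the other Tcrg-V4 cells. Of 21 compared, 14 were at least 2-fold lower and 0 higher, with a median of -1.45. Ccr7, the lymph node homing receptor, was at -2.46 (-2.85 to -2.08), Lef1, a factor of immature T cells, at -2.16 (-2.54 to -1.79), and Cd28, a costimulatory receptor, at -3.85 (-5.33 to -2.68), with 6 UMIs against 111. Against Tcrg-V6 cells the direction was the opposite for most of the list. There 9 of 19 were at least 2-fold higher in members and 0 lower, with a median of 0.84.

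Cd27 lay between the other 2 groups in members. Cd27, a costimulatory receptor whose absence marks IL-17-type γδ cells by flow cytometry, was at 202 CPM in members, 426 CPM in the other Tcrg-V4 cells and 28.6 CPM in Tcrg-V6 cells. The log2 ratios were -1.08 (-1.36 to -0.80) and 2.82 (2.40 to 3.26). It had a UMI in 75 members, 37.7%, against 67.1% and 5.44% of the other groups, and after thinning in 25.9%, 50.2% and 1.60%. Among the 36 thinned myeloid or B marker cells without a CD3 chain or Trdc UMI, 0 had Cd27, which allows up to 8.33%. Cd27 was found in 35.5% of members with Il17a and 38.7% of those without. Tcf7 (TCF-1), Klf2 and S1pr1, the last a receptor needed to leave tissue, were likewise higher than in Tcrg-V6 cells, by 1.43 (1.04 to 1.82), 1.49 (1.11 to 1.87) and 1.10 (0.77 to 1.42).

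TCR signalling genes split by gene in the members. The CD3 chains were close to those of the other Tcrg-V4 cells, with Cd3e at 0.21, Cd3g at 0.18, Cd3d at -0.14 and Cd247 at 0.12. Lck, the kinase that starts αβ receptor signalling, was at 39.9 and 279 CPM, a log2 ratio of -2.81 (-3.41 to -2.25). Prkch and Prkca, protein kinase C genes, were at -2.06 and -1.89, and Themis, a thymocyte signalling adaptor, at -4.17 (-6.07 to -2.76). Lat, Zap70 and Lcp2, which relay the signal below the receptor, were at 0.78, 0.72 and 0.68. In all, 9 of 22 genes were at least 2-fold lower and 0 higher, with a median of -0.72. Against Tcrg-V6 cells the median was -0.22, with Prkch at 1.31 (0.90 to 1.73) as the only gene at least 2-fold higher.

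Fcer1g, an adaptor that can take part in the γδ receptor complex, had the lowest ratio of all genes named by size. It had 1 UMI in members and 200 in the other Tcrg-V4 cells, a log2 ratio of -7.29 (-12.60 to -4.79). That value and its rank rested on the limit of 3 rule genes: cells with 2 rule genes had 183 CPM of Fcer1g and those with 3 had 5.49 CPM. With 2 rule genes needed the ratio was -2.51 (-3.07 to -1.98), less low than Themis at -3.58 and Ms4a6c at -3.52, and with no cell filter it was -2.85 (-3.56 to -2.21). Without the marker-bearing cells no UMI was left in members, and with members set to a floor of 3 UMIs the ratio was -5.13. Tyrobp, Ms4a6c and Plek, also among the lowest, are expressed by myeloid cells too. Tyrobp was at -5.64 (-8.70 to -3.76), and at -4.22 (-7.31 to -2.29) without the marker-bearing cells. Ms4a6c was at -4.96 (-10.30 to -2.40) and -4.16 (-9.52 to -1.53) in the same order. Plek was at -4.13 (-7.22 to -2.20), and without those cells had no UMI in members, for a ratio of -3.20 at the floor of 3 UMIs. The other low genes, besides Tbx21 and Themis, were Cd6, a T cell surface regulator, at -4.85 (-10.19 to -2.28), Gm8369 at -4.73 (-7.80 to -2.82), Klrc1, an NK receptor chain, at -4.36 (-5.83 to -3.21) and Samd3 at -4.07 (-7.16 to -2.13). Each of the 10 had at most 6 UMIs in members.

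The genes with the highest ratios over the other Tcrg-V4 cells were close to their levels in Tcrg-V6 cells. After Ltb4r1 these were Zfp462 at 4.82 (2.88 to 7.91), Mmp25 at 4.40, Cystm1 at 4.02 (2.37 to 6.36), Sdc1 (syndecan-1) at 3.93, Kcnk1, Tnfrsf25, Hk2 at 3.82, Rbpms2 at 3.79 and Ret at 3.78. Over Tcrg-V6 cells the same genes lay between -0.61 and 0.56, apart from Ltb4r1 at -2.0. Mmp25, a membrane-bound matrix protease, was the most frequent of them, with 132 UMIs in 85 members. Hk2, the inducible hexokinase, was at 136 CPM in members, 9.67 CPM in the other Tcrg-V4 cells and 119 CPM in Tcrg-V6 cells. It was the single one of 14 glycolysis genes past 2-fold, and the median of that list was 0.23.

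Set against Tcrg-V6 cells, the genes lowest in members were led by Bcl2a1a, an anti-apoptotic gene, with 1 UMI in 199 members and 194 UMIs in 588 Tcrg-V6 cells (-5.91, -11.22 to -3.42). Bcl2a1a has near-identical copies between which reads can be split, and Bcl2a1b and Bcl2a1d were both at -1.46. Ablim3 followed at -5.30 (-10.62 to -2.80), Clnk, an immune signalling adaptor, at -5.25 (-8.31 to -3.39) and Cd93 at -4.77 (-7.83 to -2.90). Zeb2, a transcription factor of terminal differentiation, was at -4.67 (-9.99 to -2.15), Ptgs2 (cyclooxygenase-2) at -4.66 (-6.29 to -3.43) and Map1b at -3.98 (-7.05 to -2.09). Members had 1 to 5 UMIs of each of these. Sema6a, a semaphorin, had no UMI in members and 182 in Tcrg-V6 cells (77.8 CPM). With members set to a floor of 3 UMIs its log2 ratio was -4.23, and its interval reached up to -3.92. Most of these genes were near 0 in the other Tcrg-V4 cells too, with 1 UMI of Bcl2a1a, 0 of Ablim3, 2 of Clnk, 2 of Ptgs2, 1 of Map1b and 0 of Sema6a. Zeb2 and Cd93 had more, with 37 and 16 UMIs there.

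Pdcd1 (PD-1), an inhibitory receptor, was low in members against both groups. It was at 121 CPM in members, 431 CPM in the other Tcrg-V4 cells and 1099 CPM in Tcrg-V6 cells, with log2 ratios of -1.83 (-2.18 to -1.49) and -3.18 (-3.50 to -2.87). It was found in 33 members, with at most 10 UMIs in a cell. Thinned shares were 12.4%, 37.1% and 73.0%, and Pdcd1 was in 0 of the 36 thinned myeloid or B marker cells without a CD3 chain or Trdc UMI, which allows up to 8.33%. Tigit, another inhibitory receptor, was lower than in the other Tcrg-V4 cells, at -1.24 (-1.71 to -0.80), and higher than in Tcrg-V6 cells, at 1.33 (0.80 to 1.85).

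The genes highest in members against Tcrg-V6 cells, after 5830411N06Rik, were App at 3.74 (2.52 to 5.17), Cd9 at 3.24 (2.63 to 3.89), Il17f at 2.88, Cd27 at 2.82, Pkp4 at 2.82, Ccr9 at 2.62 (1.97 to 3.29) and Tsc22d1 at 2.54. Of these, Cd9, Pkp4, Ccr9 and Tsc22d1 were at similar levels in all Tcrg-V4 cells, between -0.27 and 0.33 for members over the others. Cd9, a tetraspanin, was at 121, 96.7 and 12.8 CPM. Ccr9, the receptor that guides cells to the gut and within the thymus, was at 81.2, 69.8 and 13.2 CPM. For these 4 genes the interval of the ratio over the other Tcrg-V4 cells included 0, whereas App, Il17f and 5830411N06Rik were higher in members in both comparisons, App by 1.41 (0.44 to 2.44) over the other Tcrg-V4 cells. Ccr6, a rule gene and so no result, was at 165 CPM in members and 25.6 CPM in Tcrg-V6 cells.

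**Figure D4:**
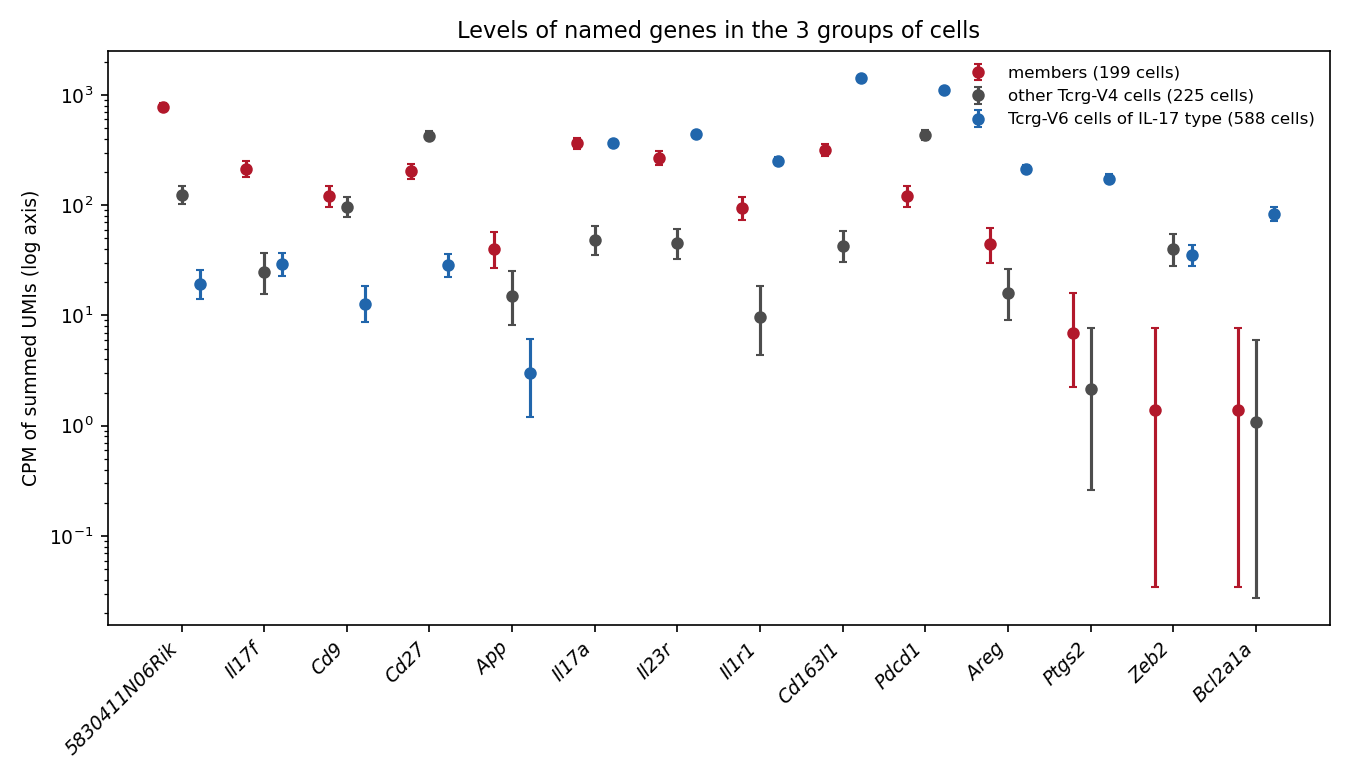
CPM of summed UMIs on a log axis for 14 genes (horizontal axis) in members (red), other Tcrg-V4 cells (grey) and Tcrg-V6 cells of IL-17 type (blue), with exact Poisson 95% intervals. Il17a is at 364 CPM in members and 362 CPM in Tcrg-V6 cells, an order that changed with how the cells were chosen, 5830411N06Rik and Il17f are highest in members, and Cd163l1 and Pdcd1 are highest in Tcrg-V6 cells.

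Integrins and adhesion genes gave a further contrast with Tcrg-V6 cells. Itgae (CD103), which binds E-cadherin on epithelium, was at 93.6 CPM in members, 26.9 CPM in the other Tcrg-V4 cells and 23.9 CPM in Tcrg-V6 cells, with log2 ratios of 1.80 (1.12 to 2.53) and 1.97 (1.44 to 2.51). Itgb7, its partner chain, was at 1.22 (0.93 to 1.52) and -0.24 (-0.44 to -0.05). Itga4 was lower in both, at -2.43 (-3.03 to -1.87) and -1.01 (-1.62 to -0.45), and the first was -3.50 (-4.40 to -2.72) without the marker-bearing cells. Actn2, a cytoskeletal actinin of IL-17-type γδ cells, was at 3.37 (2.76 to 4.03) and -0.61 (-0.83 to -0.39). Of 13 genes compared with the other Tcrg-V4 cells, 6 were at least 2-fold higher and 1 lower, and of 15 compared with Tcrg-V6 cells 1 was higher and 5 lower.

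The δ chains of the members, which the rule did not use, differed from those of both other groups. The last 300 coding bases of Trdv5, at chr14:54148662-54148961 on the minus strand, and the last 299 of Trdv2-2, at chr14:53961304-53961602 on the plus strand of GRCm38, are shown because these 2 segments were the most used. Capitals mark the longest run they share, of 9 bases, and they were 58.5% identical.
Trdv5: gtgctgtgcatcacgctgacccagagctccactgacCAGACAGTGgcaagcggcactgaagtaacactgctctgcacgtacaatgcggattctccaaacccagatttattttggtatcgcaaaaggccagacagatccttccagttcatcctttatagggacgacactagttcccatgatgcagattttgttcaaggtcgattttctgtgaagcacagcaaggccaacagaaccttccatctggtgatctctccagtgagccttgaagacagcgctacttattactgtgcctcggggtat
Trdv2-2: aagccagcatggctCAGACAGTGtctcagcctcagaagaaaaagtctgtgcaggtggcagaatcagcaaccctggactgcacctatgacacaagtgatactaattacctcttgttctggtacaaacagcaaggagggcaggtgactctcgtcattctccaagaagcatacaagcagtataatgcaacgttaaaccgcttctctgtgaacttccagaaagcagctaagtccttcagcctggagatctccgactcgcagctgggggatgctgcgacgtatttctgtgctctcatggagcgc
Of 611 δ variable UMIs in members, Trdv5 took 40.1%, Trdv2-2 35.8%, Trav13-4-dv7 13.1% and Trdv4 7.69%. In the other Tcrg-V4 cells Trav13-4-dv7 took 50.5% of 1069 UMIs, Trdv5 20.1% and Trdv2-2 19.7%. Tcrg-V6 cells used Trdv4 for 96.7% of 6799 UMIs.

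Counting cells with a single δ gene gave the same order. Among 133 such members Trdv5 was the gene in 77 (57.9%, exact interval 49.0 to 66.4), Trdv2-2 in 42 (31.6%, 23.8 to 40.2) and Trav13-4-dv7 in 11 (8.27%, 4.20 to 14.3). Among 130 such comparison cells Trav13-4-dv7 was the gene in 66 (50.8%, 41.9 to 59.6). Read the other way, members made up 77 of 114 Tcrg-V4 cells with Trdv5 alone (67.5%, 58.1 to 76.0), 42 of 66 with Trdv2-2 alone (63.6%, 50.9 to 75.1) and 11 of 77 with Trav13-4-dv7 alone (14.3%, 7.35 to 24.1). A further 33 members had no δ UMI and 33 had several genes. Trdv4, the partner of Tcrg-V6, was found in 17 members, only 2 of them with no other δ gene.

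**Figure D5:**
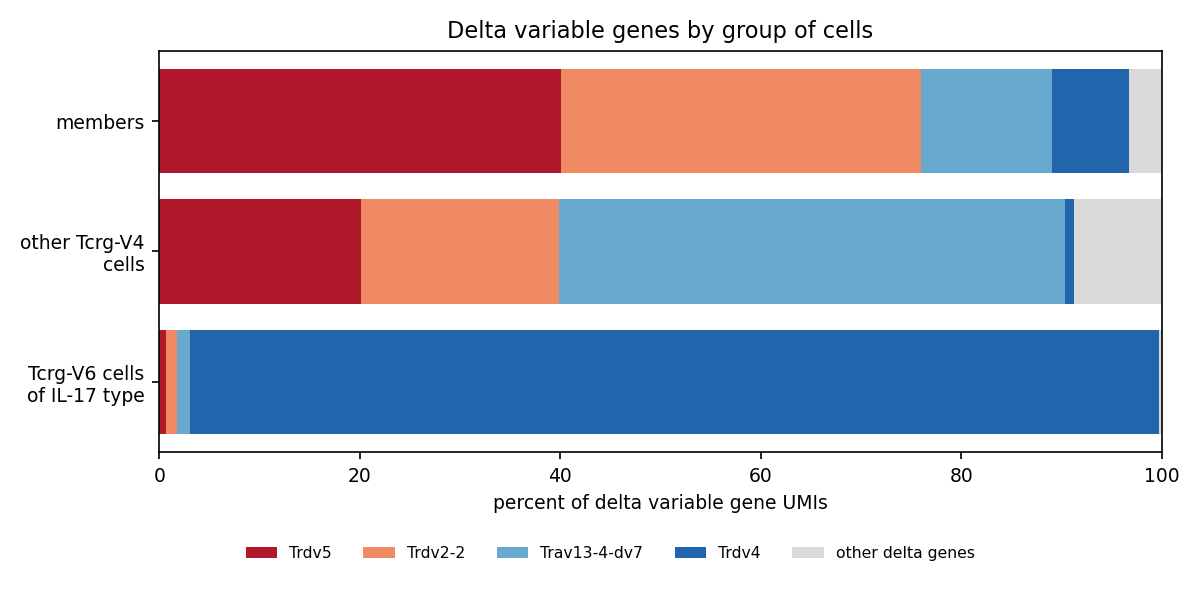
Share of δ variable gene UMIs (horizontal axis, percent) taken by each gene in members, other Tcrg-V4 cells and Tcrg-V6 cells of IL-17 type. Trdv5 and Trdv2-2 lead in members, Trav13-4-dv7 in the other Tcrg-V4 cells, and Trdv4 fills 96.7% of the Tcrg-V6 bar.

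Members with Trdv5 alone and with Trdv2-2 alone were much alike in the IL-17 genes. Il17a was at 385 CPM in the 77 Trdv5 cells and 353 CPM in the 42 Trdv2-2 cells, a log2 ratio of 0.12 (-0.35 to 0.62). Il17f was at 223 and 291 CPM (-0.38, -0.95 to 0.20), and 5830411N06Rik at 736 and 829 CPM (-0.17, -0.49 to 0.15). Each of these intervals includes 0 and allows a difference either way. Over 18 surface and channel genes none was past 2-fold either way. Pdcd1 was higher with Trdv5, at 161 and 43.3 CPM (1.90, 0.73 to 3.29), as was Cd163l1, at 377 and 204 CPM (0.89, 0.31 to 1.50). The Gzma-rich cell had 12 Trdv2-2 UMIs and no Trdv5 UMI. Over all 2352 genes compared between these subsets, 56 were at least 2-fold higher and 48 at least 2-fold lower with Trdv5.

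The rule genes, receptor genes and sex-linked genes were left out, and cells were placed by 30 principal components of 2000 variable genes. Placed so, members lay mostly among cells with at least 3 rule genes. Of the 15 nearest neighbours of a member, 32.4% on average were members, which made up 7.94% of the library, 7.94% were Tcrg-V6 cells of IL-17 type, which made up 23.5%, and 5.43% were other Tcrg-V4 cells, which made up 8.98%. The remaining neighbours, 54.2%, had no γ chain call of these kinds. Of the neighbours 81.6% had at least 3 rule genes, against 50.9% of the library. In 186 of 199 members the majority of neighbours did, as in 32 of 225 other Tcrg-V4 cells. Neighbours that were members or Tcrg-V6 cells of IL-17 type had at least 3 rule genes by definition. These shares therefore partly follow from the rule. Members and Tcrg-V6 cells were thus apart although both were of IL-17 type: of the neighbours of Tcrg-V6 cells, 70.8% were Tcrg-V6 cells of IL-17 type and 2.79% members.

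Stress and sex-linked transcripts also differed between the groups, and the part of the stress genes in the results was not tested. Of 15 immediate-early and heat-shock genes, which respond to handling as well as to signals, 5 were at least 2-fold higher in members than in the other Tcrg-V4 cells and 0 lower, with Atf3 at 2.11 (1.82 to 2.40), Fosb at 2.05 and Fos at 1.56 (1.42 to 1.70). Against Tcrg-V6 cells only 1 of the 15, Fos at 1.09, was at least 2-fold higher and 0 lower, with a median of 0.22. Y-linked UMIs were found in 34.7% of members, 22.7% of the other Tcrg-V4 cells and 26.2% of Tcrg-V6 cells. Xist, expressed from the inactive X chromosome of females, was found in 24.6%, 43.1% and 38.6% in the same order. Without cells with a Y-linked UMI, Il17a was 2.59 and Il17f 2.09 over the other Tcrg-V4 cells on the log2 scale.

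The KO library held 786 Tcrg-V1 cells chosen by the same 8 genes. Sort, genotype and library differed together and cannot be told apart, so the levels are set side by side only. Il17a was at 364 CPM in members and 73.5 CPM in the KO cells, Il17f at 213 and 8.16 CPM, 5830411N06Rik at 779 and 436 CPM, and Cd27 at 202 and 277 CPM. Blk was at 189 and 31.6 CPM and Il23r at 270 and 214 CPM. Il17f made up 10.0% of the Il17a and Il17f UMIs of the KO cells (31 of 310), beside 37.0% in members.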

How the data were processed

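Single-cell RNA-seq was made from lung γδ T cells, 1 library per group. The deposited files hold raw UMI counts per gene and barcode that the authors made with Cell Ranger on mm10 (release 7.0 per the submitters' processing notes, 7.0.0 in the file header, while the methods name an older release). The labels describe a 3′ kit and the methods a V(D)J kit. WT held 2520 barcodes and 9173997 UMIs, KO 6688 and 26436826. Barcodes with over 200 and under 4000 genes and under 10% mitochondrial UMIs were kept, 2505 and 6634.

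UMIs were summed per group. Log2 ratios of CPM have exact conditional 95% intervals, and shares exact Clopper-Pearson ones, covering counting error only. A sum of 0 was set to a floor of 3 UMIs. Neither group was replicated, so no test was run. Genes needed 30 UMIs over both groups to be counted. Named genes were those of the fixed lists that the text describes, and the 10 (against Tcrg-V6 cells, 8) highest and lowest ratios among genes found in at least 10% of the cells of either group and with at least 30 UMIs, leaving out rule, TCR variable and sex-linked genes. The members and lists were chosen with earlier results of these data known. Detection was also read after thinning to 2000 UMIs per cell. Doublets were not removed and Scrublet calls were an alternative. The ratio code was tested on simulated data. Some genes are not reported here. Python 3.11.15, numpy 2.4.6, scipy 1.17.1, pandas 2.3.3, scanpy 1.11.5, scikit-learn 1.9.0, matplotlib 3.10.9 and Biopython 1.88 were used.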

Additional observations from a re-analysis of the deposited data

How the results depend on the processing

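The 17 alternatives, 15 of them fixed at the start and 2 chosen after seeing the data, were run on 68 gene ratios. Those that changed only the UMI minimum per gene could not move a gene ratio. The alternative that kept only comparison cells without a rule gene could not move a ratio over Tcrg-V6 cells. The 68 include the genes named for the highest and lowest ratios in these data, so the counts that follow are no independent check. Of the 64 that were at least 2-fold, 59 kept their sign and stayed at least 2-fold under each alternative, and 1 changed sign. Hspa1b, at 1.45 over the other Tcrg-V4 cells, was at -0.033 when 4 rule genes were needed. Cd27, at -1.08 over the same cells, was at -0.92 with 2 rule genes and -0.85 with 2 Tcrg-V4 UMIs. It was at -0.78 when the rule was applied to thinned cells. Il1r1 over Tcrg-V6 cells, at -1.43, was at -0.92 with 2 Tcrg-V4 UMIs. The share of members among Tcrg-V4 cells was 46.9%, and 58.5% with 2 rule genes, 35.4% with 4 and 41.3% (112 members) when the rule was applied to thinned cells. In the last case Il17a over the other Tcrg-V4 cells was 0.78 and Fos 0.97, and the cause was not tested. Il17a over Tcrg-V6 cells, at 0.00, ranged from -0.62 to 0.45. With 2 Tcrg-V4 UMIs needed 48 members were left, and without cells with a Y-linked UMI 130.

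The median of type 1 and cytotoxic genes was -3.27, and -1.76 with 2 rule genes, -3.80 with 4, -4.42 after thinning, -3.87 without Scrublet doublets (15 members), -4.41 without cells with a myeloid or B marker UMI, -3.71 without cells with a Y-linked UMI, and, in the alternatives chosen after seeing the data, -3.85 without the Gzma-rich member and -3.91 without marker-bearing cells. The marker-bearing cells include the Gzma-rich member, so the alternatives chosen after seeing the data overlap. The median of naive and recirculation genes was -1.45, and -1.18 with 2 rule genes and -1.76 without Scrublet doublets. That of surface and channel genes was 2.37, and 1.63 after thinning and 1.84 with 100 UMIs needed per gene, and that of cytokine receptors 0.36, and 0.12 with 2 Tcrg-V4 UMIs.

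Genes at least 2-fold higher and lower than in the other Tcrg-V4 cells numbered 346 and 443, and 201 and 226 with 2 Tcrg-V4 UMIs, 144 and 138 with 100 UMIs per gene, and 634 and 1011 with 10. Against Tcrg-V6 cells they numbered 181 and 445, and 309 and 763, 69 and 165, and 469 and 848 in the same order. No paired analysis was possible because there was 1 library per group and the main comparisons lay within 1 library.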

Other observations

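Metabolic and cell cycle genes gave values that no comparison above used. Of 10 lipid genes compared with the other Tcrg-V4 cells, 3 were at least 2-fold higher in members and 0 lower, with a median log2 ratio of -0.01. Srebf2, a regulator of sterol synthesis, led them, at 1.36 over the other Tcrg-V4 cells and 1.30 over Tcrg-V6 cells. The 12 cycling genes summed to 78.5 CPM in members, 132 CPM in the other Tcrg-V4 cells and 116 CPM in Tcrg-V6 cells, and 4 of them, among them Cdk1 and Ccnb1, had no UMI in members. Of 9 survival genes compared with Tcrg-V6 cells, 5 were at least 2-fold lower in members and 0 higher, with a median of -1.46.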
